A study of Mus musculus with 6 samples.

Results

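The interferon gamma induced GTPases are large, membrane-acting GTP-binding proteins of cell-autonomous immunity, and 7 of them were examined here in irradiated mouse intestine. The members are the guanylate-binding proteins Gbp2, Gbp3 and Gbp6 and the immunity-related GTPases (IRG proteins) Igtp, Irgm1, Irgm2 and Iigp1. They were chosen by name, with earlier results of these data known. Every array probe whose annotated gene symbol, current or older, is one of these was taken. A gene's value is that of its brightest probe, by the mean of the 6 arrays, with the other probes given beside it. The 7 genes had 15 probes, of 19057 named genes and 45281 probes in all. Total RNA of intestine was measured on Illumina MouseWG-6 v2 BeadChips, 1 array per sample, in 3 samples from mice given free ubiquitin (free Ub, the unconjugated protein) and 3 from mice given PBS, the buffer alone. All 6 came from male C57 mice, 4 weeks old by the labels, that had received 7 Gy of total body radiation, and by the labels the agent followed the radiation and the intestine was collected 3.5 days after it. The study's methods describe older mice and injection before the radiation, and a legend gives an earlier collection, so time, age and order are uncertain, although both groups share them. No intestine without radiation is among the samples, and no source used here states that each sample is 1 mouse, so the p-values measure the spread between these 6 samples.

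Interferon gamma, secreted mainly by T and NK cells, binds a receptor made of Ifngr1 and Ifngr2, and the kinases Jak1 and Jak2 then pass the signal to the nucleus. Promoters that respond to interferon gamma often hold sites of the form TTCNNNGAA, and interferon regulatory factors such as Irf1 bind GAAA repeats. Many cells of the mouse gut, epithelium included, switch on GBP and IRG genes in response. The proteins gather on vacuoles that hold microbes and help to break them, and the Irgm proteins keep the effector IRG proteins off the cell's own membranes.

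Promoters of the members were read from RefSeq (GRCm38.p6, from 250 bases before to 50 bases after the start of transcription) and searched on both strands for GAAANNGAAA and TTCNNNGAA. The choice of members by name did not use these letters. The members are interferon gamma induced genes by definition, however, so matches in them are a description and not independent support. RefSeq promoters were at hand for 5 members, not for Gbp6 and Iigp1. All 5 held GAAANNGAAA, which 3.44% of 32851 mouse promoters of this length hold, and Igtp and Irgm2 also held TTCNNNGAA (8.30% of promoters). The 100 bases around each match are shown 5′ to 3′ on the gene's strand, with the matches in capitals.
Igtp, chr11:58199471-58199570, plus strand: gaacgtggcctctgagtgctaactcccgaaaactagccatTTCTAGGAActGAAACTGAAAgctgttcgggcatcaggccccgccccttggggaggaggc
Irgm2, chr11:58214862-58214961, plus strand: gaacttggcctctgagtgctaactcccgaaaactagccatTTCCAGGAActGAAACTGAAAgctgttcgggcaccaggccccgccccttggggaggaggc
Irgm1, chr11:48871393-48871492, minus strand: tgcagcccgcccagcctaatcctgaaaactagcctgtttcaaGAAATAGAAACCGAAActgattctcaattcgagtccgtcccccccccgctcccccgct
Gbp3, chr3:142559957-142560056, plus strand: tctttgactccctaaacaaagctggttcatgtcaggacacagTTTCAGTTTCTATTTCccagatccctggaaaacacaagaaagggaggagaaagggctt
Gbp2, chr3:142620559-142620658, plus strand: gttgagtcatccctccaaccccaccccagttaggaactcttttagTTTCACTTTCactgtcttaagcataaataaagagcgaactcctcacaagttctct
Igtp and Irgm2 carry the same arrangement, TTCNNNGAA followed by GAAANNGAAA, in a run of 21 bases that differs at 1 base, and their promoters share an identical stretch of 61 bases. The order and spacing of these matches were not particular to members. In Igtp they begin 45 and 34 bases before the start, and in Irgm2 75 and 64. The IRG genes Tgtp1 (88 and 77) and Gm12185 (86 and 75), which are not members, had the same order and spacing. In Irgm1 and Gbp3 the run is 16 bases long and holds 2 overlapping matches. Read on the opposite strand in Gbp3, it is GAAATAGAAACTGAAA, which differs at 1 base from GAAATAGAAACCGAAA of Irgm1. The matches begin 45 bases before the start in Igtp, 75 in Irgm2, 30 in Irgm1, 45 in Gbp3 and 59 in Gbp2. Gbp3 has a second RefSeq promoter, downstream, that holds neither motif. Of the 4 other GBP and IRG genes with a promoter at hand (Gbp2b, Gbp5, Gbp7 and Tgtp1), 4 held GAAANNGAAA, as did 2 of 6 further IRG genes. It was also held by 7 of 8 genes of the IFIT, Isg15 and Mx list and by 4 of 8 OAS genes. Among genes of interferon gamma signalling 3 of 18 held it, and among other interferon gamma targets 4 of 22. The element was thus not confined to the GTPase genes. A match is a description of the letters, and binding was not measured.

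Of the 7 genes, 5 had a lower signal with free Ub than with PBS, against 52.9% of all genes with a signal on at least 1 array. The counts of lower genes in the lists below are to be read beside that share. Because members and lists were chosen with earlier results of these data known, such comparisons are a description and not independent support. None of the 7 passed an adjusted p under 0.05 (limma, Benjamini-Hochberg over all probes), a call that 0.0577% of all genes received. Signals are log2 values as normalized by the authors, so a difference of 1 is a doubling, and differences are free Ub minus PBS. At an unadjusted p under 0.05 in limma, 3 of the 7 were lower (Gbp3, Igtp and Irgm1) and 0 were higher, against 3.4% of all genes lower and 2.34% higher. Iigp1 was nominally higher, a sign that turned with the mean of its probes, and Gbp6 had no signal to compare. The median difference of the 7 was -0.28, against -0.002 over all 19057 genes. That latter value is the difference read in probes at the floor on all 6 arrays, such as that of Gbp6. Over the 6141 genes with a mean above 6, the median was -0.013. The count of 3 was 0 when free Ub 1 or free Ub 2 was left out and 1 without PBS 1 or PBS 2, and it was 0 when the fit was restricted to probes that no array had at the floor (its lowest value) or to the brighter part of the probes.

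**Figure D1:**
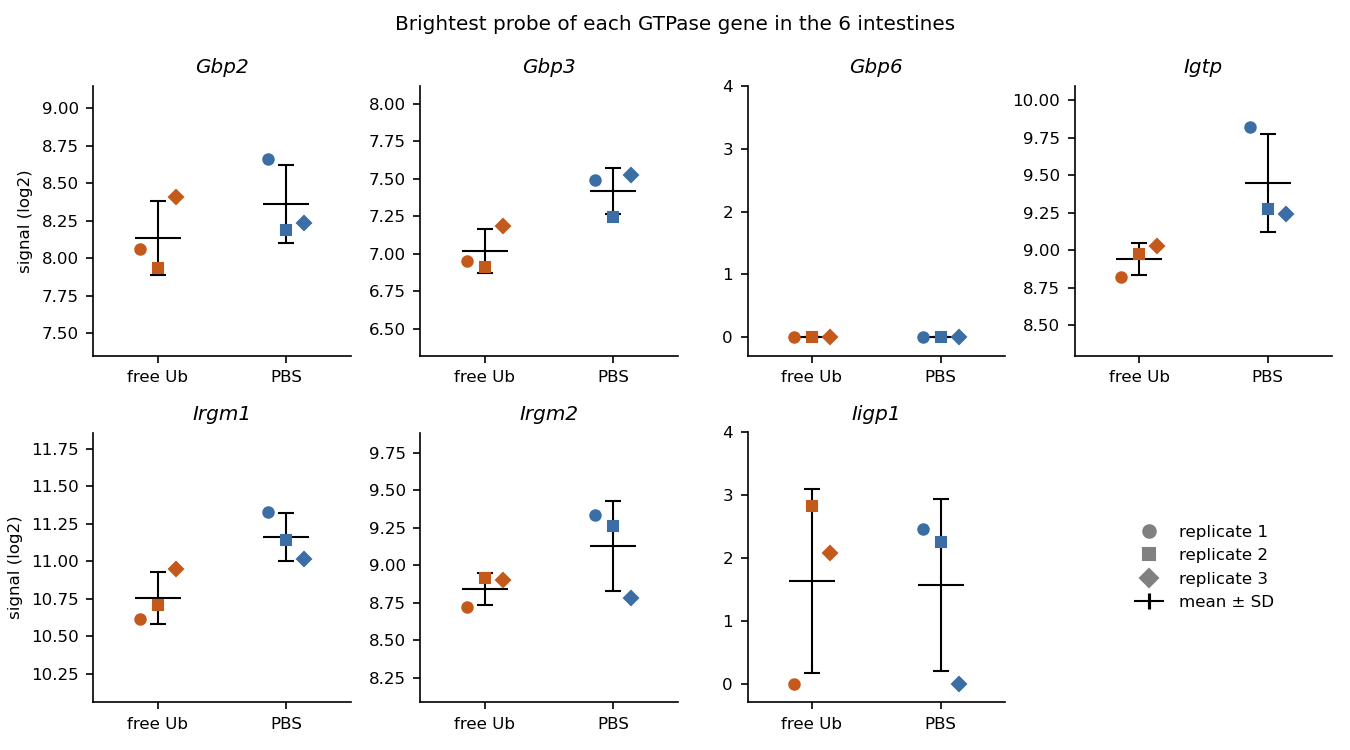
Log2 signal of the brightest probe of each of the 7 GTPase genes in the 3 free Ub (left) and 3 PBS (right) intestines, with mean and SD as lines. Axes span the same range for the 5 bright genes and a wider one for Gbp6 and Iigp1; in Gbp3, Igtp and Irgm1 every free Ub point lies below every PBS point.

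Among the regulators, Irgm1, which guards self membranes and acts in autophagy, had a bright probe with a mean of 10.96. Its signal was 10.61, 10.71 and 10.95 in free Ub 1 to 3, against 11.33, 11.14 and 11.02 in PBS 1 to 3. All free Ub values lay below all PBS values, although free Ub 3 and PBS 3 were close. The means were 10.76 ± 0.17 with free Ub and 11.16 ± 0.16 with PBS (SD, n = 3 each), a difference of -0.41 (SE 0.13, 95% interval -0.75 to -0.06), or 1.32-fold lower. In limma this gave an unadjusted p of 0.0294 and an adjusted p of 0.861, and the exact permutation test gave 0.1, the smallest it allows with 3 against 3. The unadjusted call ended without free Ub 1, free Ub 2, PBS 1 or PBS 2, where the difference lay between -0.42 and -0.32, and with array weights, which gave -0.31. A second Irgm1 probe ran the same way, at 6.13, 6.20 and 6.64 with free Ub and 7.20, 6.56 and 6.56 with PBS (-0.45, SE 0.25), but its groups overlapped. Another, dim probe was at the floor on 4 of 6 arrays and at 2.32 in free Ub 3; with all 3 probes averaged, the difference of the gene shrank to -0.02.

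Igtp, also called Irgm3, acts with its Irgm relatives at internal membranes and had 1 probe. It read 8.82, 8.98 and 9.03 in the free Ub intestines, against 9.83, 9.28 and 9.24 in the PBS intestines. The groups did not overlap, and PBS 1 stood above the other 5 samples. Igtp averaged 8.94 ± 0.11 with free Ub and 9.45 ± 0.33 with PBS (SD, n = 3 each), the largest difference among the bright members at -0.50 (SE 0.19, 95% interval -1.002 to -0.0028), or 1.42-fold lower. The limma p was 0.0492 before and 0.872 after adjustment, and the exact permutation p was 0.1. Without PBS 1 the difference was -0.31, and the unadjusted call ended without any 1 of the free Ub samples or without PBS 2, at differences of -0.59 to -0.44, as well as with a floor of 4 or 6 log2.

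Irgm2, which limits the response to bacterial lipopolysaccharide, is the gene whose promoter resembles that of Igtp. Its signal was 8.72, 8.91 and 8.90 with free Ub and 9.34, 9.26 and 8.78 with PBS. PBS 1 and PBS 2 were above all free Ub samples, and PBS 3 lay within their range. The means of 8.84 ± 0.11 with free Ub and 9.13 ± 0.30 with PBS (SD, n = 3 each) differed by -0.28 (SE 0.17, 95% interval -0.74 to 0.18), with an unadjusted p of 0.172 in limma and an exact permutation p of 0.3. Leaving out PBS 3 gave -0.45 and an unadjusted limma p of 0.008, whereas leaving out PBS 1 gave -0.18 and array weights gave -0.09, with limma p of 0.39 and 0.60.

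Iigp1, also known as Irga6, is an effector that oligomerises on the vacuole of Toxoplasma, and its 4 probes were all dim. The brightest was at the floor in free Ub 1 and read 2.83 and 2.08 in free Ub 2 and 3, against 2.46 and 2.26 in PBS 1 and 2 and the floor in PBS 3. The difference of 0.07 had a 95% interval of -2.81 to 2.94, so these arrays do not resolve Iigp1 in either direction. The other 3 probes were at the floor on 4 of 6 arrays each, and the mean of the 4 probes gave -0.15.

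Gbp3, a guanylate-binding protein encoded on chromosome 3 beside Gbp2, read 6.95, 6.91 and 7.19 with free Ub, against 7.49, 7.24 and 7.52 with PBS. The highest free Ub sample, free Ub 3, was just below the lowest PBS sample, PBS 2. The difference of -0.40 (SE 0.12, 95% interval -0.72 to -0.09) corresponded to 1.32-fold lower, between means of 7.02 ± 0.15 with free Ub and 7.42 ± 0.15 with PBS (SD, n = 3 each). Limma gave an unadjusted p of 0.0223, the smallest of the 7 genes, and an adjusted p of 0.804, with an exact permutation p of 0.1. Its second probe differed by a like amount, -0.46 (SE 0.21), at 6.61, 6.37 and 6.96 with free Ub and 7.33, 7.12 and 6.86 with PBS. There free Ub 3 exceeded PBS 3, and the unadjusted limma p was 0.0852. For the brighter probe the unadjusted call ended without free Ub 1, free Ub 2, PBS 1 or PBS 3, at differences between -0.37 and -0.35. It also ended when the fit was restricted to brighter probes or to probes that no array had at the floor.

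Gbp2, which coats vacuoles and bacteria and promotes inflammasome activation, did not separate the groups. It had 8.06, 7.93 and 8.41 in free Ub 1 to 3 and 8.66, 8.19 and 8.24 in PBS 1 to 3. Free Ub 3 exceeded PBS 2 and PBS 3, and PBS 1 was highest. The means were 8.13 ± 0.25 with free Ub and 8.36 ± 0.26 with PBS (SD, n = 3 each), a difference of -0.23 (SE 0.20, 95% interval -0.75 to 0.29; limma, unadjusted p = 0.300; exact permutation p = 0.4). Without PBS 1 it was -0.08, without free Ub 2 it was -0.13, and without free Ub 3 it was -0.37; array weights gave -0.13. Its other probes were dim and differed by 0.30 and -1.01, with intervals that span 0. The single Gbp6 probe was at the floor on all 6 arrays, so no level or difference of Gbp6 could be read.

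The 5 genes with a mean signal above 4 (Gbp2, Gbp3, Igtp, Irgm1 and Irgm2) had a sample pattern partly in common. Pearson correlations between pairs of them had a median of 0.81 over the 6 samples, which include the group difference. For deviations from the group means the median was 0.70, with -0.24 for Gbp3 with Irgm2. After each gene was set to a mean of 0 over the 6 samples, the mean of the 5 genes was -0.29, -0.23 and -0.03 in free Ub 1 to 3, against 0.41, 0.10 and 0.04 in PBS 1 to 3. PBS 1 was the highest sample for 4 of the 5 genes and PBS 3 for Gbp3, and the lowest sample was free Ub 1 for 3 genes and free Ub 2 for 2. The span of the mean was thus set mostly by PBS 1 at the upper end and by free Ub 1 and 2 at the lower. In that mean free Ub 3 and PBS 3 differed by little, but single genes differed in both directions. Gbp3 was at -0.03 in free Ub 3 and 0.30 in PBS 3, and Irgm2 at -0.09 and -0.20. Without PBS 1 the median difference of the members was -0.18, and without PBS 3 it was -0.45.

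**Figure D2:**
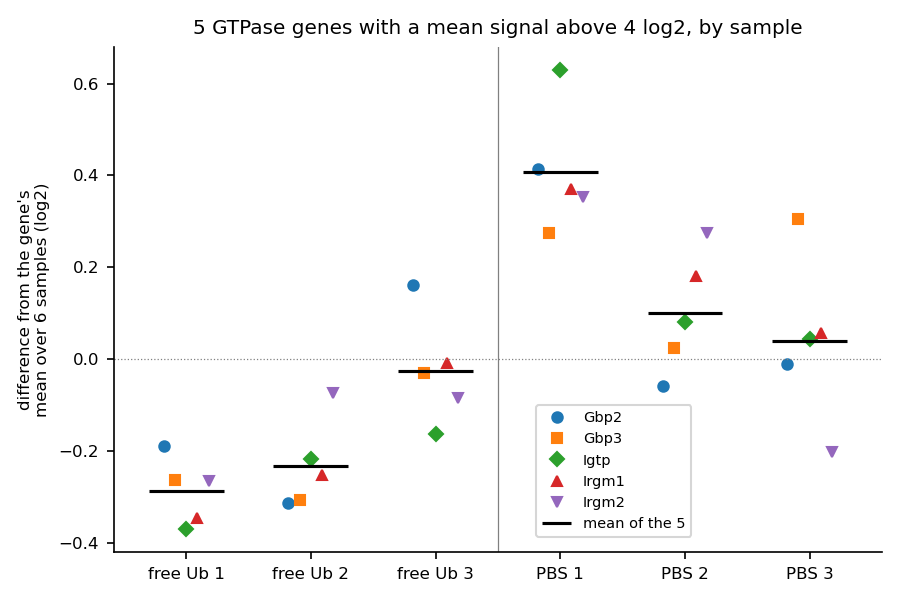
Log2 signal of the 5 GTPase genes with a mean above 4, each minus its own mean over the 6 samples, in free Ub 1 to 3 (left) and PBS 1 to 3 (right), with black bars for the mean of the 5. The bars run from -0.29 in free Ub 1 to 0.41 in PBS 1, and those of free Ub 3 and PBS 3 are -0.03 and 0.04.

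Set against other genes of similar brightness, the members lay in the lower part of the distribution and not at its edge. Of the 6141 genes with a mean above 6, 1.64% had a lower difference than Igtp, 3.31% than Irgm1, 3.40% than Gbp3, 8.34% than Irgm2 and 12.7% than Gbp2. Every free Ub value lay below every PBS value in 3 of the 7 members, against 6.69% of all genes and 5.83% of those with a mean above 6.

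**Figure D3:**
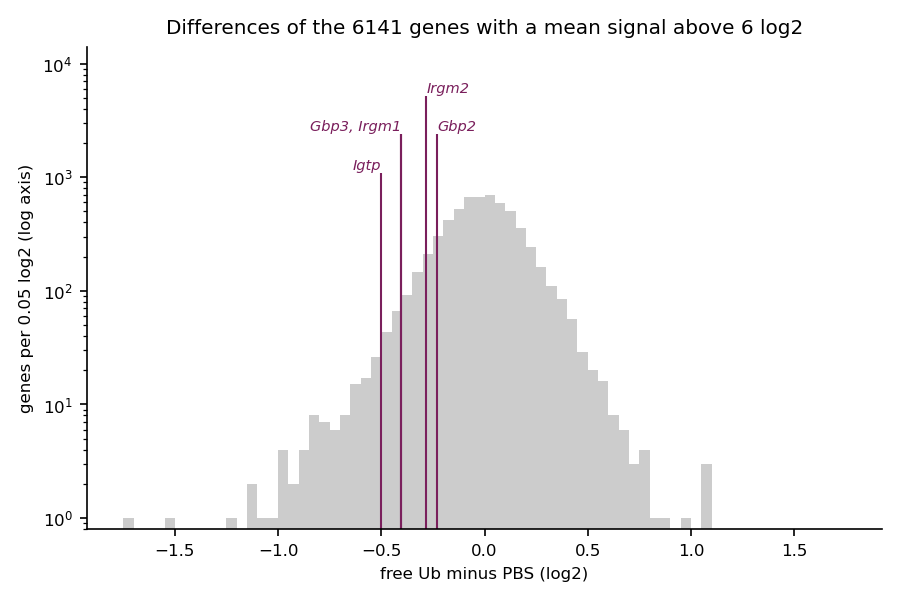
Number of genes (log axis) by difference of free Ub minus PBS in steps of 0.05 log2, for the 6141 genes with a mean signal above 6, with lines at the 5 members of that brightness. The lines lie between -0.50 (Igtp) and -0.23 (Gbp2), on the lower side of the distribution but inside it.

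Other GBP and IRG genes were mostly too dim to place. Of 19 on the list 13 had a probe, of which 10 were lower and 1 higher with free Ub and 2 (Gm4841 and Irgc1) were at the floor throughout. None of the 13 had an unadjusted p under 0.05 in limma. Gvin1, a very large interferon inducible GTPase went the other way, with 6.28, 6.18 and 6.64 in the free Ub samples against 6.36, 5.76 and 5.83 in the PBS samples (0.38, SE 0.22). Gbp2b, the mouse Gbp1, overlapped widely, at 5.60, 6.61 and 5.71 with free Ub and 6.52, 5.86 and 6.38 with PBS (-0.28, SE 0.36). Gbp7 differed by -0.53 (SE 0.42) and Gm4951 by -0.45 (SE 0.34), with overlapping groups. Gbp4, Gbp5, Gbp8, Gbp9, Gbp10, Gbp11 and Tgtp1 had means below 3, and their differences, from -1.26 in Gbp5 to -0.06 in Gbp10, all had intervals that include 0. Of 6 further genes with an IRG name, added after the values were seen, 4 were lower, 1 was higher and 1 was at the floor. Ifi47 (also Irgd) read 7.58, 8.05 and 8.35 with free Ub and 8.68, 8.22 and 8.09 with PBS, which overlap (-0.34, SE 0.27), and its RefSeq promoter held neither motif. Gm5431 and Gm12185 were dim and differed by -1.39 and 0.73.

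**Figure D4:**
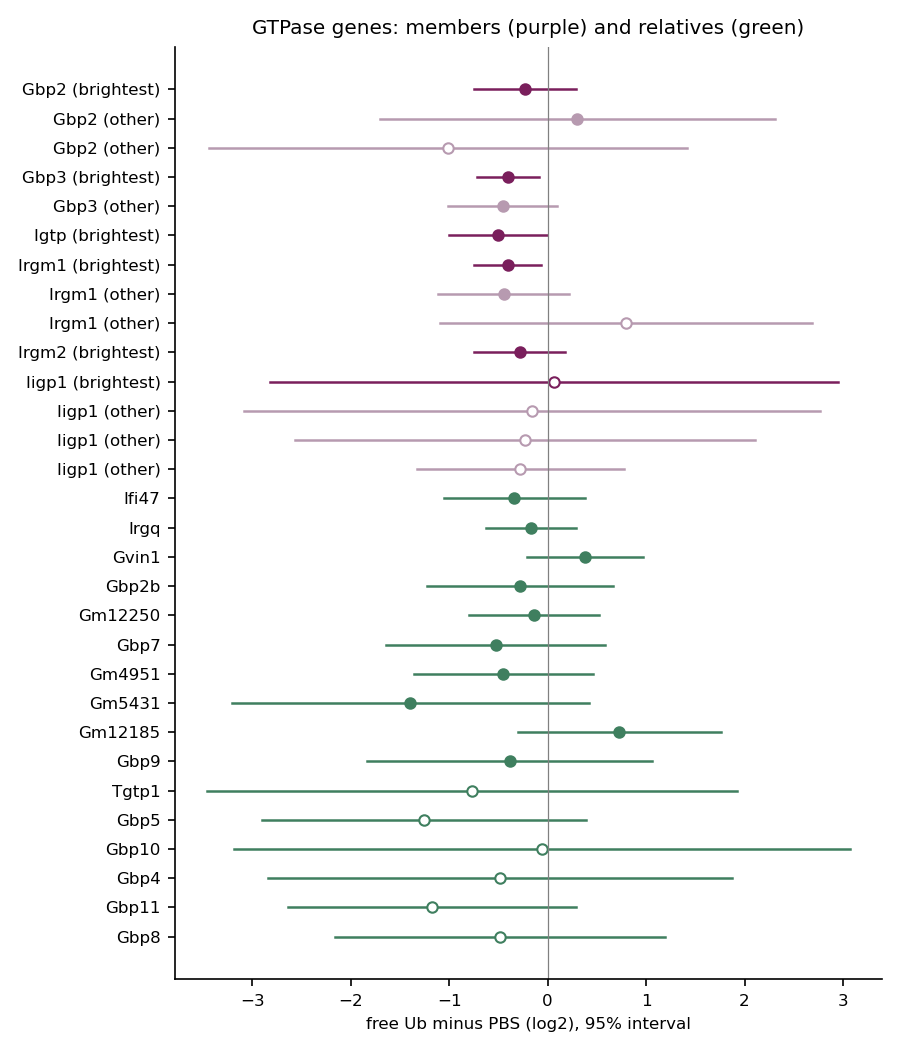
Difference of free Ub minus PBS (log2) with its 95% interval for each member probe above the floor on at least 1 array (purple, paler for a gene's other probes) and for its measured relatives (green, by brightness); open circles mark probes at the floor on 1 or more arrays. Among the plotted probes, intervals wholly below 0 occur only for the brightest probes of Gbp3, Igtp and Irgm1.

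The list of interferon gamma signalling genes held both signs. It joins the ligand, receptors, kinases and transcription factors with inhibitors, inducers and factors of the producing cells. Counts over the whole list therefore do not describe the carriers of the signal alone. Of 22 measured genes on that list, 12 were lower and 10 higher with free Ub, against 52.9% of all genes lower. The median was -0.04, with 3 genes lower at an unadjusted p under 0.05 in limma and 0 past adjustment. The ligand Ifng was dim but separated the groups, with 1.95, 1.90 and 2.13 in the free Ub intestines and 2.76, 3.40 and 2.91 in the PBS intestines. Its difference was -1.03 (SE 0.19, limma adjusted p = 0.493). The receptor chains had opposite signs, Ifngr1 at 0.27 (SE 0.12) and Ifngr2 at -0.22 (SE 0.26), as did the kinases, Jak2 at 0.34 (SE 0.29) and Jak1 at -0.06 (SE 0.37). None of these 4 had an unadjusted p under 0.05.

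Irf1, a transcription factor of the family that binds GAAA repeats, is itself induced by interferon gamma. It had a bright probe and overlapping groups, with 12.01, 12.14 and 12.40 in the free Ub samples and 12.40, 11.98 and 11.87 in the PBS samples. Its difference was 0.10 (SE 0.19, 95% interval -0.40 to 0.60), and 1 of its 2 RefSeq promoters held TTCNNNGAA and neither held GAAANNGAAA. Irf2 (0.02, SE 0.08), Irf9 (-0.03, SE 0.11) and Irf8 (-0.22, SE 0.13) had unadjusted p above 0.05 in limma as well. Batf2, a factor that works with Irf1 in macrophages, had 8.19, 8.14 and 8.03 with free Ub and 8.35, 8.66 and 8.48 with PBS, a difference of -0.37 (SE 0.10). Usp18, which removes ISG15 and blocks the type I interferon receptor, was 9.51, 9.58 and 9.78 with free Ub, against 10.56, 10.12 and 9.95 with PBS (-0.59, SE 0.19). In both genes the groups did not overlap, with limma adjusted p of 0.713 and 0.862. The feedback inhibitor Socs3 differed by -0.24 (SE 0.21) and Socs1 was at the floor on 3 arrays.

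**Figure D5:**
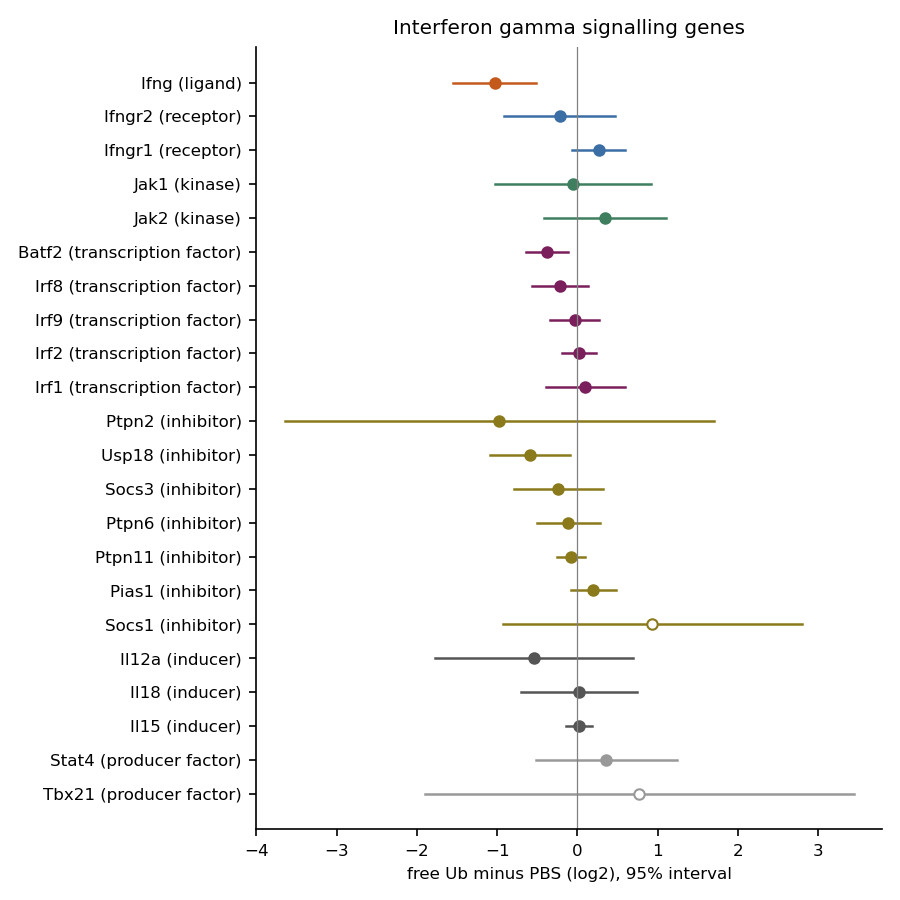
Difference of free Ub minus PBS (log2) with its 95% interval for 22 genes of interferon gamma signalling, ordered and coloured by role; open circles mark probes at the floor on 1 or more arrays. The intervals of Ifng, Batf2 and Usp18 lie below 0, and those of the receptors, kinases and the 4 IRF genes include 0.

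Other targets of interferon gamma also had both signs. Of 31 measured, 18 were lower, 12 higher and 1 at the floor, against 52.9% of all genes lower. Their median was -0.08, with 3 lower at an unadjusted p under 0.05. These 3 were the peptide transporter chains Tap2 and Tap1 and the proteasome activator Psme1. Tap2 was 9.56, 9.47 and 9.37 in the free Ub samples and 10.04, 9.99 and 9.87 in the PBS samples, with no overlap and a difference of -0.50 (SE 0.07, limma adjusted p = 0.337). Tap1 differed by -0.37 (SE 0.10) and Psme1 by -0.18 (SE 0.07). Other class I genes of the list, named after their values were seen, had both signs, with Psmb8 at 0.16 (SE 0.19), Tapbp at 0.14 (SE 0.19) and Psmb9 at -0.10 (SE 0.10). Ciita, the master regulator of MHC class II, differed by -0.73 (SE 0.37), and Ido1, which degrades tryptophan, by 0.35 (SE 0.15), neither past an unadjusted p of 0.05. Among genes that type I interferon also induces, 8 of 12 measured OAS genes were lower (median -0.50, 3 at an unadjusted p under 0.05), as were 10 of 11 of the IFIT, Isg15 and Mx list, which includes Usp18 (median -0.46, 4 at that p). Oas1g and Oas2, sensors of double-stranded RNA, differed by -0.71 (SE 0.12) and -1.51 (SE 0.28), and Mx2, a dynamin-like antiviral GTPase, by -0.77 (SE 0.22). Of 16 genes whose proteins work with the GTPases at vacuoles, autophagy and ubiquitin adaptors among them, 6 were lower and 10 higher, 0 at an unadjusted p under 0.05 in limma, with a median of 0.08. Gabarapl2, a relative of LC3, differed by 0.69 (SE 0.38), Atg16l1, which is needed to place the GTPases on vacuoles, by -0.18 (SE 0.11) and the adaptor Sqstm1 by 0.24 (SE 0.17). Whether any of these lists differs from the members was not tested.

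The labelled tissue was checked by epithelial markers: Vil1, the microvillus protein villin, averaged 12.68 ± 0.18 with free Ub and 12.56 ± 0.06 with PBS (SD, n = 3 each), and the mucin Muc2 and keratin Krt20 were above 13, although Fabp2 was at the floor on 3 arrays. The mean signal of the 18 epithelial markers was 9.23 to 9.55 with free Ub and 9.40 to 9.54 with PBS, and 1 of them, the intestinal factor Cdx2, was lower at an unadjusted p under 0.05 in limma (-0.27, SE 0.08). Fewer cells of a type and less RNA per cell cannot be told apart in such bulk samples. T and NK cell markers, of the main sources of interferon gamma, were lower in 13 of 19, with a level of 4.44 to 4.82 with free Ub and 4.69 to 4.74 with PBS. Of these, Prf1, the perforin of killer cells, was 7.40, 7.14 and 7.45 in the free Ub samples and 8.26, 7.996 and 7.67 in the PBS samples, without overlap (-0.64, SE 0.18, limma adjusted p = 0.763), whereas Cd3e differed by -0.12 (SE 0.14) and Klrb1c was at the floor on all arrays. Every free Ub value lay below every PBS value in 4 of the 19, against 6.69% of all genes. Beside Prf1 these were Cd8b1 (-0.29, SE 0.11), Klrd1 (-0.27, SE 0.11) and Zap70 (-0.18, SE 0.11). Only Prf1 had an unadjusted p under 0.05 in limma. Of the 9 T and NK cell markers with a mean above 6, 8 were lower. Macrophage markers were lower in 9 of 16, at 5.53 to 6.002 with free Ub and 5.08 to 6.09 with PBS. The mean level of the endothelial markers did separate the groups, at 5.22 to 5.63 with free Ub and 5.69 to 6.01 with PBS. Of the 18, 15 were lower and 3 higher, with a median of -0.41, against 52.9% of all genes with a signal on at least 1 array lower. Of the 9 with a mean above 6, 9 were lower. In 7 of the 18 every free Ub value lay below every PBS value, against 6.69% of all genes. Eng (-0.56, SE 0.15) and Robo4 (-0.46, SE 0.14) were lower at an unadjusted p under 0.05 in limma. Vwf (-0.82, SE 0.33), Plvap (-0.52, SE 0.22) and Flt1 (-0.41, SE 0.17) also did not overlap, with unadjusted limma p above 0.05. The vessel genes Pecam1 (-0.12, SE 0.27) and Cdh5 (0.04, SE 0.26) were dimmer, with means of 5.85 and 4.17, and overlapped between groups. Erg and Sox17 were at the floor on 1 array each. Smooth muscle and stromal markers were lower in 5 of 12, at 6.89 to 7.23 with free Ub and 6.47 to 7.55 with PBS. The part of these cell types in the lower GTPase signals was not tested.

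The genes whose pattern over the 6 samples was most like the mean of the 5 GTPase genes were ranked by correlation. Among 6136 genes with a mean above 6, the highest Pearson correlations were those of Gstm1, a glutathione transferase (0.994), the zinc finger gene Zfp282 (0.991), Usp18 (0.991) and Taf1a of RNA polymerase I (0.990). Tubb6, Clpp, Vamp2, Rcc1, Snai3 and Ptprs followed, at 0.983 to 0.978. These are the extremes of many genes over 6 points that include the group difference, and serve as a description. Gstm1, for example, read 9.31, 9.35 and 9.74 with free Ub and 10.30, 9.94 and 9.83 with PBS, again highest in PBS 1. Of the genes on the lists above, Usp18 (rank 3), Prf1 (51), Oas2 (61), Oasl1 (81) and Ifi47 (119) ranked highest, while Irf1 ranked 1965 and Gbp2b 2151.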

How the data were processed

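Total RNA of mouse intestine, depleted of rRNA by the labels, was hybridised to Illumina MouseWG-6 v2 BeadChips, 1 array per sample. The authors processed the raw data with cubic-spline normalization in GenomeStudio (version not stated), which left values that were deposited without a stated scale and are taken here as log2 signals from their range (highest 14.5), and background handling is not given in the sources used here. Of all values, 32.7% lay within 0.01 of their array's lowest value and were called at the floor. Such probes carry no order, and dim probes have wide errors. The number of arrays limits the precision.

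Probes were named by the platform annotation with symbols updated through RefSeq (34885 probes with 1 symbol, 18 with several, 10378 unnamed here); probe sequences were not used here, so whether a probe also reads a near-identical relative was not checked. All 45281 probes were fitted in limma 3.58.1 (R 4.3.3; lmFit, eBayes; contrast of free Ub minus PBS with no covariates, two-sided) with Benjamini-Hochberg adjustment, and single genes by exact permutation (two-sided). The procedure was tested on simulated data. The named genes are all members and relatives, some of the up to 6 genes of each list with the smallest unadjusted p, the signalling core, and the 10 genes most like the members; Socs1, Socs3, Muc2, Krt20, Fabp2, Cd3e, Klrb1c, Pecam1, Cdh5, Sox17, Psmb8, Psmb9, Tapbp and the IRG additions were picked after their values were seen. The members and lists were chosen with earlier results of these data known. Alternatives were other scalings, floors, filters, variance models, a replicate block, Student tests, averaged probes and leaving out each sample.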

Additional observations from a re-analysis of the deposited data

How the results depend on the processing

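The differences of Gbp2, Gbp3, Igtp, Irgm1 and Irgm2 were negative under all 19 alternatives, and the count of members past an adjusted p under 0.05 (limma) was 0 in each, with 3 at an unadjusted p under 0.05 in the reported fit. The lowest adjusted p of any of these 5 genes under an alternative was 0.349, for Irgm2. The count of 3 lower genes at an unadjusted p was 0 with probes above the median of probe means and 0 with probes above the floor on all 6 arrays (chosen after seeing the data), and ranged from 0 to 3 when a sample was left out. The median difference of -0.28 ranged from -0.45 to -0.18 when a sample was left out and was -0.13 with array weights, where Gbp2 was at -0.13 and Irgm2 at -0.09. Iigp1 turned from 0.07 to -0.15 with the mean of its probes and ranged from -0.72 to 0.88 when a sample was left out. Floors of 4 and 6 made Iigp1 and Gbp6 constant, and the filtered fits left them out, so these gave no value. With the replicate number as a block the count was 1, both in limma and in the paired Student test. The study's methods name a paired Student test for gene expression, without saying what pairs the samples. Deviations of same-numbered samples had correlations of -0.0028, 0.020 and -0.091 over 21349 probes. Those of differently numbered samples ran from -0.093 to 0.092. Deviations from means of 3 samples cannot decide whether the numbers pair the samples. Background correction and the slide as a block were not run, because the table used holds normalized values only. The cause of these changes was not tested. With 3 samples a group, a difference such as -0.28 in the bright gene Irgm2, and far larger ones in dim genes, had intervals that include 0.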
